A study of Canis lupus familiaris with 12 samples.

Results

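Transcripts of 9 cholinergic genes were followed in beagle hippocampus after 2 weeks of rapid atrial pacing or after a sham operation. The genes were taken by symbol and not by a rule on their values, but with earlier results of these data known. They were the muscarinic receptors CHRM1, CHRM2, CHRM3 and CHRM4, the nicotinic receptor subunits CHRNA4, CHRNA7 and CHRNB2, and the cholinesterases ACHE and BCHE. All 9 were present among the 31158 gene models of the deposited hippocampal table. Fast electrical stimulation of the atria is a way to bring on atrial fibrillation in dogs; the design asked how that rhythm relates to cognitive impairment. The hippocampal arms held 3 libraries after pacing and 3 after the sham operation, all from beagles with no genetic change stated. No age or sex is given in the labels, and they do not say that each library came from a separate dog, so the p-values measure the spread between libraries. Whole hippocampal tissue was sequenced as messenger RNA, and in such bulk tissue fewer cells of a type and less RNA per cell cannot be told apart.

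Acetylcholine reaches the hippocampus mainly along axons of the medial septum and diagonal band, and it modulates memory encoding and rhythmic activity there. Muscarinic receptors are G-protein-coupled: CHRM1 and CHRM3 act through Gq and phospholipase C, while CHRM2 and CHRM4 act through Gi and reduce cyclic AMP. Nicotinic receptors are ligand-gated cation channels built of subunits; CHRNA7 forms channels on its own, and CHRNA4 with CHRNB2 forms the commonest heteromeric channel of the brain. Acetylcholinesterase, from ACHE, ends the signal by hydrolysing acetylcholine, and butyrylcholinesterase, from BCHE, is a related enzyme linked to glia in human brain. Inhibitors of these enzymes are used against the cognitive symptoms of Alzheimer's disease.

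Libraries held 35003483 to 43425895 assigned reads in pacing and 36573169 to 51789497 in sham. Sham replicate 2 was set off along the first principal component, which carried 45.3% of the variance (39.6, beside 8.61 or less elsewhere). Sham replicate 3 was set off along the second, which carried 25.5% (-29.1, beside -6.21 or more elsewhere). The 4 excitatory neuron markers SLC17A7, NEUROD2, CAMK2A and PROX1 were all detected. Their summed level was 308 to 395 RPKM in pacing and 241 to 354 in sham. Thalamic neuron markers summed to 14.6 to 15.1 RPKM in pacing and 6.11 to 19.0 in sham. Striatal neuron markers summed to 1.65 to 2.04 RPKM in pacing and 1.30 to 2.61 in sham. RPKM is the number of reads per kilobase of exon, scaled to the assigned reads of the library. Summed choroid plexus markers (4 of 4 found, with FOLR1 and AQP1 below a mean of 0.5 RPKM) ran from 74 to 158 RPKM in pacing and from 5.75 to 452 in sham. The 5 microglial markers were the only one of 12 marker lists whose sums did not overlap, at 34.6 to 42.1 in pacing and 27.2 to 34.4 in sham. Among all tested genes, taken singly, 16.2% had arms that did not overlap. What part these differences had in the cholinergic values was not tested.

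The cholinergic genes were expressed at low to middling levels, and their order was led by the same pair in every library. CHRM1 was the highest of the 9 and BCHE the second highest in all 6 libraries. Over the 6 libraries CHRM1 averaged 6.25 ± 0.727 RPKM (SD, n = 6), which lay at percentile 56.1 of the 16090 genes with a mean of at least 0.5 RPKM. BCHE averaged 4.39 ± 0.945, CHRNB2 3.13 ± 0.379, CHRNA7 3.09 ± 0.3 and CHRM4 3.05 ± 0.994 RPKM. Below them CHRM2 averaged 2.12 ± 0.261, CHRM3 1.67 ± 0.334, ACHE 1.23 ± 0.418 and CHRNA4 0.741 ± 0.385 RPKM, the last at percentile 7.44. All 9 had a mean above 0.5 RPKM, so all entered the test. CHRNB2, CHRNA7 and CHRM4 were not separable by level, since their means differed by less than 0.12 of the larger SD. The ranges of every other pair of neighbours in this order overlapped too, and the higher gene of the pair was above in 4 to 6 of the 6 libraries.

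**Figure D1:**
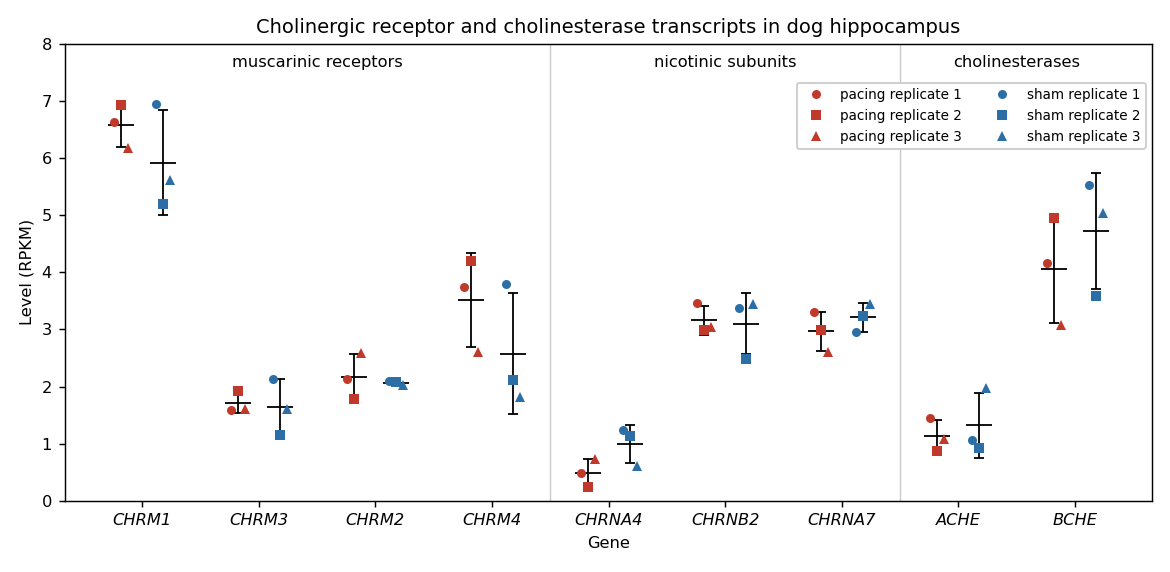
Level in RPKM (vertical axis) of the 9 genes (horizontal axis) in each hippocampal library, pacing in red to the left of sham in blue, with the marker shape giving the replicate and black bars the mean ± SD of 3 libraries. The arms overlap for every gene, and CHRM1 lies highest.

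Pacing libraries were set against sham libraries to see whether receptor or enzyme transcripts differed in paced dogs. None of the 9 genes passed limma's test at an adjusted p of 0.05, where 0.0249% of all tested genes did (4 of 16090). At an unadjusted p under 0.05 there was 1 of 9, CHRNA4, against 9.15% of all tested genes. By library values 0 of 9 had arms apart, against 16.2% of all tested genes. The log2 difference was positive for 5 of the 9 and negative for 4, where 58.9% of all tested genes were negative, with a median of 0.03 beside -0.04 over all genes tested. All differences below are pacing minus sham on the log2(RPKM + 1) scale, which understates the change of low genes.

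CHRM1, the main muscarinic receptor of pyramidal neurons, had 6.64, 6.94 and 6.17 RPKM in pacing, against 6.96, 5.19 and 5.62 RPKM in sham. Sham replicate 1 lay above every pacing library, while the other 2 sham libraries lay below all of them. Pacing minus sham came to 0.14 (95% interval -0.15 to 0.42, adjusted p = 0.731 by limma), 0.24 without sham replicate 1 and 0.062 without sham replicate 2. Between 667 and 1127 reads per library stood behind these values. The model lies on chromosome 18 of CanFam3.1 from 53783938 to 53797750, plus strand, and shares no exonic base with another model.

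CHRM3, the other Gq-coupled receptor, had 1.59, 1.91 and 1.61 RPKM in pacing, against 2.14, 1.15 and 1.62 RPKM in sham. The sham libraries held both the highest and the lowest value, and the pacing libraries fell between them. Its log2 difference was 0.05 (95% interval -0.30 to 0.41, adjusted p = 0.927 by limma). The gene spans chromosome 4 from 504663 to 999550 on the minus strand. Of its 6194 exonic bases, 13.3% are shared with LOC102157143 on the opposite strand; no strand setting of the read counting is known, so reads of the 2 models in that stretch cannot be told apart.

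CHRM2, a Gi-coupled receptor known as the autoreceptor on cholinergic terminals and as the receptor of the heart, had 2.14, 1.78 and 2.58 RPKM in pacing, against 2.09, 2.08 and 2.03 RPKM in sham. All 3 sham libraries fell inside the span of the pacing libraries. The SD was 0.402 in pacing and 0.0335 in sham, whereas 7 of the 9 genes, and 79.2% of all tested genes, had the smaller SD in pacing. On the log2 scale the arms differed by 0.04 (95% interval -0.24 to 0.32, adjusted p = 0.932 by limma). It lies on chromosome 16 from 11515727 to 11665651, minus strand, and shares 2 exonic bases with another model.

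CHRM4, the other Gi-coupled receptor, had 3.75, 4.19 and 2.60 RPKM in pacing, against 3.80, 2.12 and 1.82 RPKM in sham. Sham replicate 1 lay among the pacing libraries, and sham replicates 2 and 3 lay below all of them. This was the largest positive difference of the 9, at 0.36 (95% interval -0.18 to 0.89, adjusted p = 0.645 by limma), and it did not pass. Without sham replicate 1 it was 0.59 (adjusted p = 0.161 by limma), and without sham replicate 3 it was 0.21. The model lies on chromosome 18 from 43077115 to 43084298, plus strand, with 139 to 396 reads per library.

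The 4 muscarinic transcripts summed to 14.1, 14.8 and 13.0 RPKM in pacing, against 15.0, 10.5 and 11.1 RPKM in sham. CHRM1 made up 47.1 ± 0.404% of that sum in pacing and 48.8 ± 2.18% in sham (SD of 3 libraries each; difference -1.65 percentage points, exact two-sided permutation p = 0.4). With 3 libraries against 3, this test cannot go below 0.1. The difference was -2.84 percentage points without sham replicate 1, -0.698 without sham replicate 3 and -0.333 with reads in place of RPKM. CHRM1 thus stood near the sum of the other 3 in every library, from 46.4% to 50.7%.

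Levels of CHRM1 and CHRM4 followed those of the excitatory neuron markers from library to library. Those markers summed to 323, 395 and 308 RPKM in pacing, against 354, 241 and 244 RPKM in sham, so sham replicate 1 was high and sham replicates 2 and 3 were low, as for both receptors. Across the 6 libraries the Pearson correlation with the summed markers was 0.957 for CHRM1, 0.948 for CHRM4 and 0.791 for CHRM3. CHRM2 stood at -0.240 and the nicotinic CHRNA7 at -0.489. CAMK2A, a kinase of excitatory synapses, made up 56.9 to 67.2% of the marker sum. It had 196, 254 and 201 RPKM in pacing, against 237, 162 and 139 RPKM in sham. The vesicular glutamate transporter SLC17A7 had 89.7, 95.3 and 71.4 RPKM in pacing, against 77.0, 48.6 and 81.1 RPKM in sham, so it was not low in sham replicate 3. Taken marker by marker, the correlation with CHRM1 ran from 0.686 for PROX1 to 0.873 for CAMK2A. With CHRM4 it ran from 0.605 for SLC17A7 to 0.930 for NEUROD2. These values describe 6 libraries, with 36 correlations between the 9 genes and 4 marker lists. The part of the marker level in the receptor differences was not tested.

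**Figure D2:**
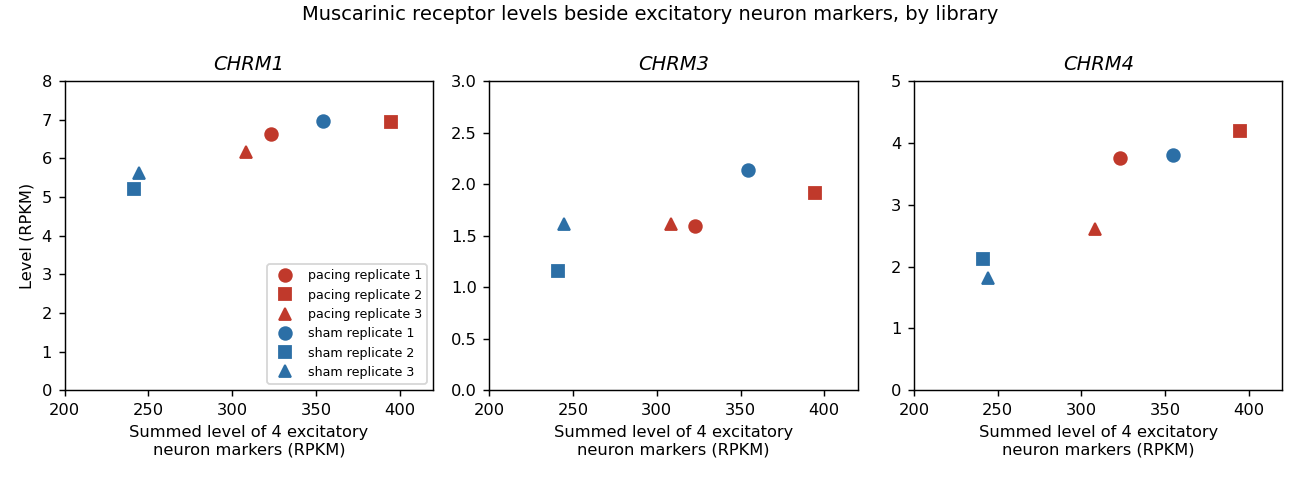
Level in RPKM of CHRM1, CHRM3 and CHRM4 (vertical axes, each from 0) against the summed RPKM of 4 excitatory neuron markers (horizontal axes, from 200), 1 point per library, pacing in red and sham in blue. Sham replicates 2 and 3, near 241 and 244 RPKM on the horizontal axis, hold the lowest CHRM1 and CHRM4 levels.

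CHRNA4, the alpha subunit of the high-affinity nicotine receptor, was the scarcest member and the one with the lowest unadjusted p. It had 0.488, 0.237 and 0.731 RPKM in pacing, from 48, 22 and 58 reads, against 1.24, 1.14 and 0.615 RPKM in sham, from 140, 134 and 51 reads. Sham replicate 3 lay below pacing replicate 3, so the arms overlapped by that pair. The arms averaged 0.485 ± 0.247 RPKM in pacing and 0.998 ± 0.335 in sham (SD of 3 libraries each). The log2 difference was -0.43 (95% interval -0.83 to -0.02, unadjusted p = 0.0415, adjusted p = 0.536 by limma), so it did not pass over all genes. Because the level is near the pseudocount of 1, the value moved to -0.95 with a pseudocount of 0.1 and to -0.13 with a pseudocount of 5, with adjusted p = 0.538 and adjusted p = 0.545 by limma. In pooled reads the share of CHRNA4 was 128 reads in pacing against 325 in sham, a ratio of 0.456 (exact 95% interval 0.369 to 0.562, counting error only). The interval takes reads as independent and is too narrow if both ends of a fragment were counted. The spread within arms, a coefficient of variation of 39.7%, was larger than the 11.5% that counting independent reads alone gives at the mean read number. The unadjusted p of CHRNA4 by limma did not stay under 0.05 throughout. It was 0.0527 with median-of-ratios scaling, 0.0587 with quantile scaling and 0.149 with library weights. With a library left out it ran from 0.0114 (without sham replicate 3) to 0.141 (without pacing replicate 2). The gene lies on chromosome 24 from 47024948 to 47036507, minus strand.

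CHRNB2, the beta subunit that pairs with CHRNA4, had 3.46, 2.999 and 3.04 RPKM in pacing, against 3.37, 2.48 and 3.45 RPKM in sham. Sham replicate 2 was the lowest library and the other 5 lay between 2.999 and 3.46. The arm difference was 0.03 (95% interval -0.27 to 0.33, adjusted p = 0.952 by limma), with a negative value of -0.03 when libraries were weighted. The model lies on chromosome 7 from 42786505 to 42797976, minus strand. CHRNA4 over CHRNB2, a ratio chosen after its values were seen, was 0.141, 0.0791 and 0.240 in pacing, against 0.367, 0.460 and 0.178 in sham. Transcripts of the beta subunit were thus more than 2 times those of the alpha subunit per kilobase in all 6 libraries, and sham replicate 3 again fell among the pacing libraries.

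CHRNA7, whose product forms calcium-permeable channels on its own, had 3.30, 2.99 and 2.61 RPKM in pacing, against 2.95, 3.23 and 3.45 RPKM in sham. It was the steadiest of the 9 over all libraries, with the highest value 1.32 times the lowest. Pacing minus sham came to -0.09 (95% interval -0.34 to 0.17, adjusted p = 0.818 by limma), -0.15 without pacing replicate 1 and -0.021 without pacing replicate 3. The model spans chromosome 3 from 36852082 to 37164930, minus strand, with no exonic base shared with another model.

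Muscarinic receptors took 67.8 ± 2.28% of the summed RPKM of the 7 receptor genes in pacing and 62.2 ± 3.71% in sham (SD of 3 libraries each). By library the share was 66.1, 70.4 and 67.0% in pacing, against 66.5, 60.6 and 59.6% in sham. Sham replicate 1 lay just above pacing replicate 1, and sham replicates 2 and 3 below all pacing libraries. The difference of 5.62 percentage points had an exact two-sided permutation p of 0.2, where 0.1 is the smallest that 3 against 3 allows.

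**Figure D3:**
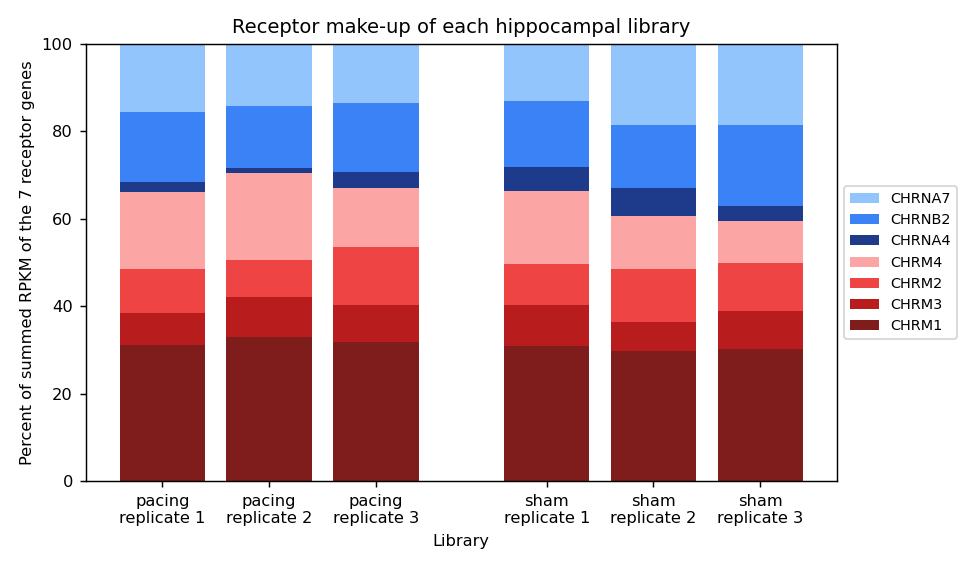
Share of each of the 7 receptor genes in their summed RPKM (vertical axis, percent) in each hippocampal library (horizontal axis), pacing to the left of sham, with muscarinic receptors in reds and nicotinic subunits in blues. The muscarinic share is highest in pacing replicate 2 at 70.4% and lowest in sham replicate 3 at 59.6%.

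ACHE had 1.44, 0.876 and 1.08 RPKM in pacing, against 1.06, 0.927 and 1.98 RPKM in sham. Sham replicate 3 stood highest and the other 2 sham libraries lay within the span of the pacing libraries. On the log2 scale the arms differed by -0.10 (95% interval -0.54 to 0.34, adjusted p = 0.883 by limma), and without sham replicate 3 it was 0.09. ACHE lies on chromosome 6 from 8874747 to 8879926, plus strand, and 112 to 226 reads per library stood behind it. Its within-arm coefficient of variation of 36.9% was above the 7.88% of counting error with reads taken as independent.

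BCHE had 4.17, 4.95 and 3.07 RPKM in pacing, against 5.54, 3.59 and 5.04 RPKM in sham. Each arm held a low library, pacing replicate 3 and sham replicate 2, and the spans overlapped widely. Its log2 difference was -0.18 (95% interval -0.62 to 0.26, adjusted p = 0.775 by limma), -0.33 without sham replicate 2 and -0.030 without pacing replicate 3. The gene lies on chromosome 34 from 30912632 to 30977624, minus strand. BCHE exceeded ACHE in every library, by 2.55 to 5.64 times per kilobase. ACHE made up 22.3 ± 6.24% of the 2 enzymes' summed RPKM in pacing and 21.6 ± 6.14% in sham (SD of 3 libraries each; difference 0.683 percentage points, exact two-sided permutation p = 1, with 0.1 the smallest possible).

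ACHE and CHRNB2 moved across libraries with the summed interneuron markers GAD1, GAD2, SST, PVALB, VIP and NPY and against the summed oligodendrocyte and astrocyte markers. For these lists only the sums were compared, not the single markers. The Pearson correlation over the 6 libraries was 0.945 for CHRNB2 and 0.798 for ACHE with the summed interneuron markers, and -0.930 for CHRNB2 and -0.843 for ACHE with the summed oligodendrocyte markers MBP, MOG, MAG and MOBP. With the summed astrocyte markers AQP4, GFAP, SLC1A3 and GJA1 it was -0.937 for CHRNB2 and -0.588 for ACHE. The value for ACHE was not set apart there, since CHRM3 stood at -0.694 and CHRM1 at -0.514. The interneuron sum was 165 to 216 RPKM in pacing and 153 to 224 in sham, and the oligodendrocyte sum 476 to 633 in pacing and 342 to 894 in sham. The astrocyte sum was 1285 to 1539 RPKM in pacing and 1177 to 2162 RPKM in sham. BCHE followed none of the 4 lists compared as closely, with correlations of -0.488 to 0.460. The same libraries and the same scaling lie behind all of these values, so they are a description only.

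The genes with the most similar pattern to each member over the 6 libraries, up to 2 a member, were taken from 12758 tested genes with a symbol. CHRM1 was nearest to NUMBL (r = 0.997) and RHBDL3 (r = 0.997), CHRM3 to SRRM4 (r = 0.994) and DAW1 (r = 0.994), CHRM4 to GMEB2 (r = 0.995) and ARVCF (r = 0.992), and CHRM2 to ANP32E (r = 0.956) and PTGER3 (r = 0.9501). CHRNB2 was nearest to SLC4A3 (r = 0.996) and PRMT1 (r = 0.992), CHRNA7 to TDP1 (r = 0.995) and SENP8 (r = 0.993), and CHRNA4 to RSL1D1 (r = 0.990). ACHE was nearest to SYNGR3, a synaptic vesicle gene (r = 0.990), and ACTL6B, a subunit of the neuronal chromatin remodeller (r = 0.989), and BCHE to the kainate receptor GRIK4 (r = 0.989) and CCDC43 (r = 0.985). With 6 points such values come easily: 116 genes reached an r of 0.95 with CHRM1, and 2 did with CHRM2.

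Transcripts for making and releasing acetylcholine were near 0 in the tissue. CHAT, the enzyme that makes acetylcholine, had 2 reads in pacing and 4 in sham over the 3 libraries of each arm. SLC18A3, its vesicular transporter, stood at 0.158 ± 0.0517 RPKM in pacing and 0.134 ± 0.0774 RPKM in sham, from 32 and 30 reads. SLC5A7, the choline transporter of the terminal, had 0.272, 0.0745 and 0.299 RPKM in pacing, against 0.244, 0.0809 and 0.552 RPKM in sham, with 16 to 106 reads per library. None of the 3 reached a mean of 0.5 RPKM, so none was tested. The 5 cholinergic neuron markers CHAT, SLC18A3, SLC5A7, LHX8 and ISL1 summed to 0.280 to 0.438 RPKM in pacing and 0.127 to 0.745 in sham.

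Of 13 other nicotinic subunits, all found in the table, 5 were tested and 0 passed, with log2 differences from -0.09 to 0.09. CHRNE, a subunit of the muscle receptor, was the most abundant at 4.89 ± 0.444 RPKM in pacing and 4.66 ± 0.48 in sham (SD of 3 libraries each), but 4.39% of its exonic bases are shared with models on the opposite strand. CHRNB1 had a log2 difference of -0.06 (adjusted p = 0.871 by limma), CHRNA1 0.09 and CHRNA5 -0.09 (adjusted p = 0.874 for each). The remaining muscarinic receptor, CHRM5, stood at 0.75 ± 0.14 RPKM in pacing and 0.768 ± 0.145 RPKM in sham (log2 difference -0.01, adjusted p = 0.974 by limma; 0.01 and 0.03 under the other 2 scalings).

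Of 8 genes for enzyme anchors and nicotinic accessory proteins, 6 were tested and 0 passed. LYNX1, a membrane-tethered protein that dampens nicotinic receptors in mouse, had 31.7, 33.2 and 32.6 RPKM in pacing, against 24.7, 23.6 and 28.5 RPKM in sham. All pacing libraries lay above all sham libraries, with a log2 difference of 0.34 (95% interval 0.10 to 0.57, unadjusted p = 0.011, adjusted p = 0.415 by limma), which did not pass. RIC3, a chaperone of nicotinic receptor assembly, had 6.63, 6.52 and 6.95 RPKM in pacing, against 7.82, 8.16 and 7.26 RPKM in sham. Here all pacing libraries lay below all sham libraries, also without passing (log2 difference -0.18, adjusted p = 0.595 by limma). TMEM35A, a chaperone also called NACHO, stood at 3.80 ± 0.548 RPKM in pacing and 4.71 ± 1.37 RPKM in sham (log2 difference -0.22, adjusted p = 0.727 by limma; -0.077 without sham replicate 3 and -0.43 without sham replicate 2).

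All 13 genes of muscarinic signalling were tested, and 0 passed; 6 had a positive and 7 a negative difference, with a median of -0.00. PLCB1, the phospholipase C downstream of Gq, had 78.9, 81.2 and 78.4 RPKM in pacing, against 88.5, 44.4 and 64.1 RPKM in sham, so sham replicate 1 lay above all pacing libraries. Its log2 difference was 0.33 (adjusted p = 0.667 by limma), and 0.57 without sham replicate 1 or 0.08 without sham replicate 2. KCNQ3, a channel subunit of the M-current that muscarinic receptors close, stood at 17.8 ± 0.74 RPKM in pacing and 15.6 ± 2.68 RPKM in sham (log2 difference 0.20, adjusted p = 0.666 by limma; 0.062 without sham replicate 2 and 0.30 without sham replicate 3). GNAO1, the brain's Go alpha subunit, had 31.0, 31.0 and 30.5 RPKM in pacing, against 31.9, 35.2 and 34.2 RPKM in sham, with pacing below sham throughout and a log2 difference of -0.12 (adjusted p = 0.666 by limma); 2.55% of its exonic bases are shared with an opposite-strand model. Over all 25 tested genes of these lists, 11 had a positive and 14 a negative difference, where 58.9% of all tested genes were negative, and the median was -0.01. Arms were apart for 3 of the 25, against 16.2% of all tested genes, and 1 had an unadjusted p under 0.05, against 9.15%.

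**Figure D4:**
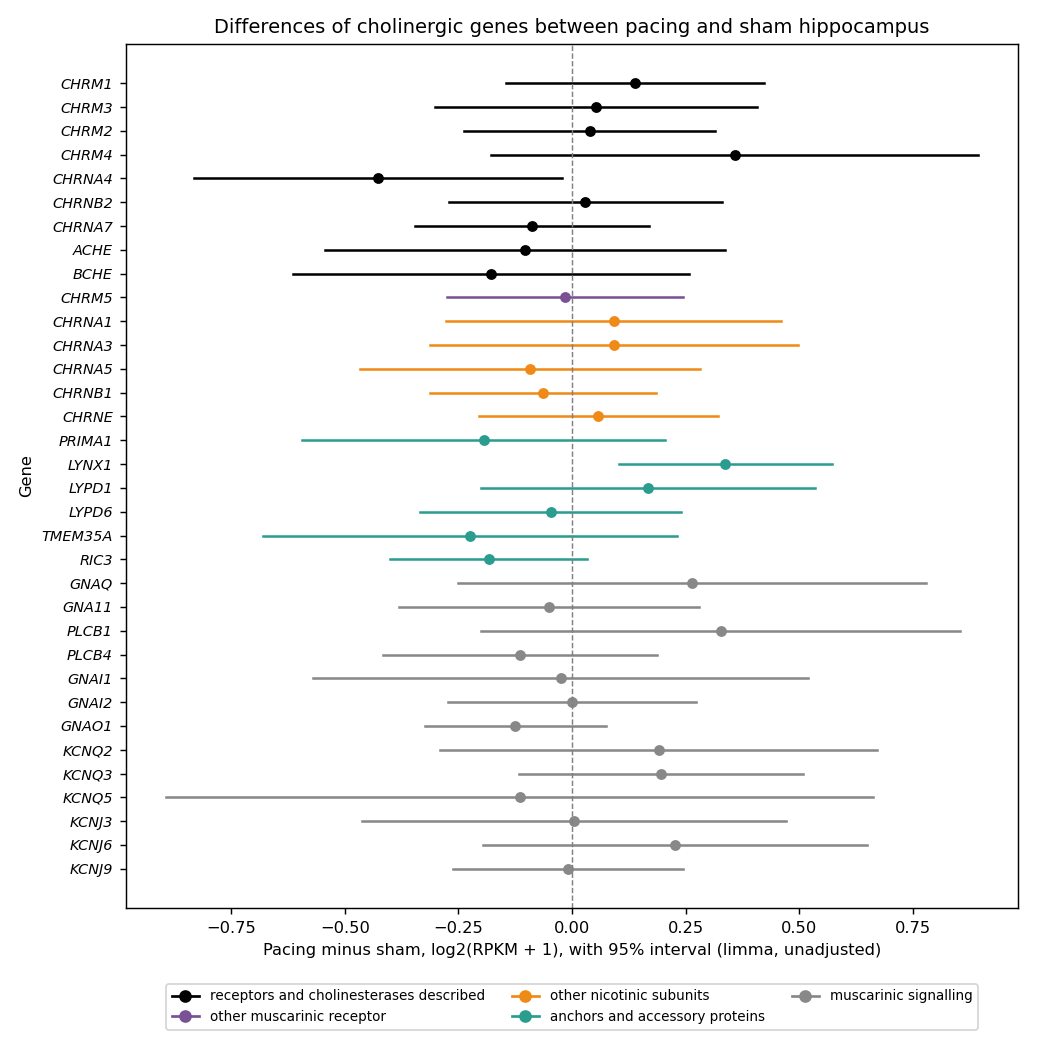
Difference of pacing minus sham in log2(RPKM + 1) (horizontal axis) for the 9 genes in black and 25 other tested cholinergic genes in colour (vertical axis), with limma's 95% interval, unadjusted. The intervals of CHRNA4 and LYNX1 leave out 0, and no gene passed after adjustment over all 16090 genes. For CHRNA4 the interval did not leave out 0 under every alternative.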

How the data were processed

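The authors deposited hippocampal values as RPKM per gene model and exosome values as RPM (named TPM in the file, but without a length term). Trimmomatic 0.36, STAR 2.5.3a and featureCounts are named, per the submitters' processing notes; no annotation release or strand setting is stated. The sequence names are those of CanFam3.1. RPKM times gene length, divided by its smallest nonzero value in the library, gave whole numbers for 100% of values (tolerance 0.001). That smallest value was taken as a single read. Read numbers of LYNX1, SLC18A3 and CHRNB4 were even in every library. Whether both ends of a fragment were counted was not tested. Counting errors and intervals from read numbers take reads as independent, and the intervals cover counting error only.

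Genes with a mean of at least 0.5 RPKM were tested with limma 3.58.1 (R 4.3.3, trended variance) on log2(RPKM + 1), pacing minus sham, with Benjamini-Hochberg adjustment over all genes at 0.05. The fit was checked on simulated reads, with changes larger than any of the 9 genes had and the same spread setting for all genes and both arms. That check does not cover smaller changes or unequal spreads. Shares were compared by exact permutation. The genes and lists were chosen with earlier results of these data known. Named genes are the members, CHAT, SLC18A3, SLC5A7, up to 3 genes per list with the smallest p, and the 2 most similar genes per member; some genes that these rules or the marker lists took are not reported here and were left out of marker sums; CHRNE was added after its value was seen. COLQ was not matched. Protein and promoter sequences were not used here. Alternatives changed the pseudocount, filter, scaling, weights, block and test, and left out each library.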

Additional observations from a re-analysis of the deposited data

How the results depend on the processing

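None of the 9 genes, and none of the 25 other cholinergic genes, passed under any of the 14 alternatives; the smallest adjusted p of a member was 0.161 (CHRM4 without sham replicate 1). The count of all genes passing was 4, and became 7 with no filter, 23 with library weights, 7 with the replicate number as a block and 3 to 95 when a library was left out (95 without sham replicate 1, 9 without sham replicate 2). The log2 difference of CHRNB2 turned to -0.034 with weights, and that of CHRM5 to 0.0057 with median-of-ratios and 0.025 with quantile scaling. With a library left out, log2 differences spanned -0.054 to 0.13 for CHRM2, -0.084 to 0.19 for CHRM3, -0.085 to 0.093 for CHRNB2, -0.22 to 0.091 for ACHE, -0.083 to 0.034 for CHRM5, -0.044 to 0.24 for CHRNA1, -0.20 to 0.083 for CHRNA5 and -0.11 to 0.0096 for CHRNB1, and the difference in ACHE share spanned -2.09 to 4.29 percentage points. The cause was not tested. Libraries of the same replicate number had correlations of deviations of -0.111, 0.0636 and -0.0109, beside -0.232 to 0.270 for unlike numbers. The labels do not state a pairing, so the block rests on shared numbers only. Under the block the value of CHRNA4 was -0.43 with adjusted p = 0.648 by limma. The planned count test was not run, because no table holds counts; limma-voom on recovered reads, chosen after seeing the data, called 4 genes and 0 members. CHRNA4, at 22 to 140 reads per library, had the fewest reads of the 9 genes. Its within-arm coefficient of variation of 39.7% was still above the 11.5% of counting error with reads taken as independent.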

Other observations

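In the exosome libraries of left atrial epicardial fat from the same study, cfa-miR-132, a miRNA known to target ACHE in mouse, was looked up after the hippocampal values were seen. It was listed at 0 in all 3 pacing libraries and at 0, 39.7 and 0 RPM in the sham libraries. Here 39.7 RPM, the smallest nonzero value of its library, was taken as 1 read of 25171. The other libraries held 12159 to 16114 listed reads, so 3 reads, the limit that a count of 0 allows, stand for 186 to 247 RPM in pacing. A count of 0 therefore does not exclude a level below that in pacing.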
